A study of Homo sapiens with 6 samples.

Results

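Chromatin accessibility at 4 genes of the cell division cycle, RRM2, CKAP2, PMF1 and E2F1, was read from ATAC-seq libraries of NB4, an established human line of acute promyelocytic leukaemia. ATAC-seq tags accessible DNA with the Tn5 transposase. SMARCD2, which codes for a BAF (SWI/SNF) subunit, had been depleted with either of 2 short hairpins (shRNA1, shRNA2), and the comparison was a control, marked scr in the library names. Libraries came from undifferentiated cells in DMSO and from cells differentiated in 1 µM ATRA (all-trans retinoic acid), which turns NB4 towards granulocytes. Each of the 4 combinations of hairpin status and treatment used 50000 cells per library, with 1 control library and 2 knockdown libraries in DMSO and the same numbers in ATRA. Each hairpin gave 1 library per treatment, and nothing in the labels ties a library to a separate culture. The labels do not state how the hairpins were delivered, or whether clones or pools of cells were used.

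The genes were chosen by name from a table of regions for each treatment, on the nearest gene given there, and every region so found was kept. This gave 4 regions of 591, 1 per gene: RRM2 and CKAP2 in the DMSO table (323 regions) and PMF1 and E2F1 in the ATRA table (268 regions). A region stands in a table because its libraries differed between knockdown and control. The largest unadjusted p in the authors' deposited table was 0.00499 in DMSO and 0.00498 in ATRA. The values of this contrast therefore selected the regions, and they are given as a description, with no test. The gene missing from a table has no value in that treatment, so no gene can be compared between DMSO and ATRA. The knockdown itself could not be checked here, because reads of accessible DNA do not measure the RNA or protein of SMARCD2. That gene also had 0 listed regions in either treatment. Because only differing regions are listed, the identity of the cells could not be checked either: of the 7 promyelocyte markers AZU1 alone had a listed region, in DMSO, and the 9 monocyte, lymphoid and erythroid markers had 0.

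The products of these genes act at successive steps of division. E2F1 is a transcription factor that, once released from the retinoblastoma protein, drives genes needed for entry into S phase, its own gene among them. RRM2 is the small subunit of ribonucleotide reductase, which makes the deoxyribonucleotides for DNA synthesis, and it is a known E2F target. CKAP2 is a microtubule-associated protein of the mitotic spindle. PMF1 is a subunit of the MIS12 complex, which joins centromeric chromatin to spindle microtubules at the kinetochore. Retinoic acid slows proliferation of NB4 cells as they mature.

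The promoters of 3 of the genes carry CCAAT boxes, which many cell cycle promoters hold but which also stand in 32.7% of all promoters. That of E2F1 also carries an E2F site. Because E2F and NF-Y factors are known to act through such elements, the stretches that hold them are shown. They are RefSeq sequences (GRCh38.p14), written 5′ to 3′ on the strand of the gene, with position -1 as the last base before the annotated start. Capitals mark the NF-Y box CCAAT or its reverse complement ATTGG, and the E2F site TTTGGCGC. Forms of the E2F site that were not searched are left in lower case. The RRM2 stretch runs from -130 to -31 of the second of 2 annotated starts, which lie 171 bases apart. The PMF1 stretch runs from -130 to -31, and the E2F1 stretch from -250 to -1.
RRM2: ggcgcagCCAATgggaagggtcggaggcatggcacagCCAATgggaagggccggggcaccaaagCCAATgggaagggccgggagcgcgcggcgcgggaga
PMF1: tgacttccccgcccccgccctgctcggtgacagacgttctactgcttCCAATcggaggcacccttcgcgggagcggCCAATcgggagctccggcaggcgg
E2F1: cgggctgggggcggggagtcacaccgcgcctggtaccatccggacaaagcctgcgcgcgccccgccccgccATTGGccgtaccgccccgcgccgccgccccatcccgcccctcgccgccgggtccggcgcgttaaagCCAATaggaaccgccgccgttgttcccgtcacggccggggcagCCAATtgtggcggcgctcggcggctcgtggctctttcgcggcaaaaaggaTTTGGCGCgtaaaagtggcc

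In the 250 bases before the start, RRM2 (second start) and E2F1 each held 3 CCAAT boxes, counted on both strands, and PMF1 held 2. The window before the first RRM2 start held 1, at -249 to -245. Over the 22198 promoters of protein-coding genes in the same RefSeq table, 32.7% held at least 1 and 3.34% held 3 or more. Of the 3 exact E2F strings searched, TTTGGCGC was found at E2F1 alone, at -20 to -13, and in 0.685% of those promoters. Other forms of the E2F site were not searched, so whether E2F1 or the other genes hold further sites was not determined. The other E2F sites searched, TTTCCCGC and TTTGGCGG, were in none of the 4 genes' windows, and 3.03% of all promoters held any of the 3. The GC box GGGCGG was found at all 4 genes, at RRM2 before the first start alone, and in 53.7% of all promoters. In PMF1 a pair of GC boxes stood end to end, from -122 to -111, on the opposite strand. CKAP2 had a single GC box at -46 to -41 and none of the other motifs. The CHR core TTTGAA, which many mitotic promoters carry, matched in 0 of the 4 genes and in 11.0% of all promoters. TGANTCA (AP-1), GAGGAAGT (a PU.1-like site), TTGCGCAA (a C/EBP palindrome) and TATAAA (the TATA box) also matched in none. All 4 promoters held more CpG than the median of 16, with 23 in CKAP2 and in PMF1, 27 in RRM2 (second start) and 38 in E2F1. The 75th percentile over all promoters was 25, so CKAP2 and PMF1 lay below it. None of these letters was read from the accessible regions. Those are given on GRCh37.p13, no genome of that build was used here, and so how far each region lies from these promoter windows was not measured.

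**Figure D1:**
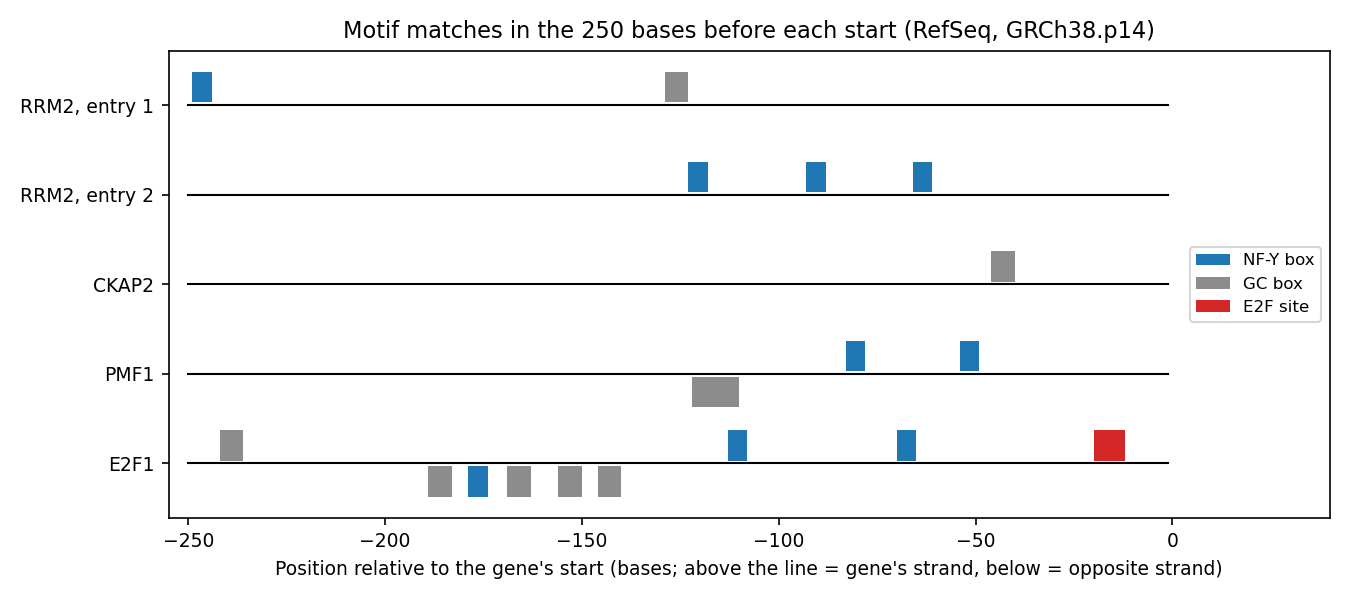
Matches to the NF-Y box (blue), GC box (grey) and the searched E2F site TTTGGCGC (red) in the 250 bases before each annotated start. Position relative to the start is on the x axis in bases, with 1 line per promoter (RRM2 has 2 annotated starts). RRM2 (entry 2) and E2F1 show 3 NF-Y boxes each, PMF1 shows 2, and CKAP2 has a GC box alone.

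Each of the 4 regions overlapped its gene (distance 0 in the deposited tables), as did 77.1% of all listed regions in DMSO and 81.3% in ATRA. The RRM2 region spans chr2:10262364-10263142 (GRCh37.p13, gene on the plus strand) and is 779 bp wide. The CKAP2 region spans chr13:53029235-53030161 (plus strand), 927 bp. The PMF1 region spans chr1:156186339-156186560 (plus strand), 222 bp, and the E2F1 region spans chr20:32273598-32273812 (minus strand), 215 bp. All 4 were wider than the median listed region, 141 bp in DMSO and 149 bp in ATRA. Whether a region is exonic or intronic was not determined, because no annotation of that build was used.

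Levels are given on 2 scales. On the fold scale, reads were divided by the library sizes that give back the authors' fold changes, from 11497000 reads (control, DMSO) to 17632000 (shRNA1, ATRA). The other scale is that of the authors' normalized counts. Relative to the fold scale it lowers the ratio of knockdown (both hairpins) to control by 0.18 log2 units in DMSO and by 1.00 in ATRA, or 1.14 and 2.01 times. Intervals below are exact 95% intervals on the reads. They cover counting error only, not the spread between cultures, and with 1 control library that spread was not measured.

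RRM2 in DMSO had fewer reads in the knockdown than in the control. The region held 256 reads with shRNA1, 252 with shRNA2 and 294 in the control. As normalized counts these were 226, 208 and 353, a knockdown mean of 217 ± 12.9 (SD, n = 2). Both hairpin libraries lay below the control and close to each other. Accessibility was 1.43-fold lower in the knockdown on the fold scale (1.24 to 1.66) and 1.63-fold lower on the normalized scale (1.40 to 1.88). Each hairpin taken alone was also lower, shRNA1 by 1.37-fold (1.16 to 1.63) and shRNA2 by 1.49-fold (1.26 to 1.77). The ratio of shRNA1 to shRNA2 was 1.09 (0.910 to 1.30), so a difference between the hairpins was not detectable at this depth.

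CKAP2 in DMSO showed nearly the same reads as RRM2. The region held 259 reads with shRNA1, 227 with shRNA2 and 285 in the control, or 229, 188 and 342 normalized counts (knockdown 208 ± 29.4, SD, n = 2). Again both hairpins were below the control. The knockdown was 1.45-fold lower on the fold scale (1.25 to 1.68) and 1.65-fold lower on the normalized scale (1.42 to 1.91). Here the hairpins differed more: shRNA1 was 1.32-fold below the control (1.11 to 1.56) and shRNA2 1.61-fold (1.35 to 1.92), a ratio of shRNA1 to shRNA2 of 1.22 (1.02 to 1.47).

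PMF1 in ATRA was the listed region with the most control reads of that table, 239 against 195 for the next. The hairpin libraries held 183 reads (shRNA1) and 177 (shRNA2). The normalized counts were 145 and 126 (knockdown 136 ± 13.2, SD, n = 2) against 438 in the control. The knockdown was 1.61-fold lower on the fold scale (1.36 to 1.90), and 3.24-fold lower on the normalized scale (2.74 to 3.82). Both hairpins were below the control on either scale. On the fold scale they were alike, 1.60-fold (1.32 to 1.95) and 1.62-fold lower (1.33 to 1.98), with a ratio between them of 1.01 (0.819 to 1.25).

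E2F1 in ATRA was the only one of the 4 with more reads in the knockdown, and it was the least covered. The region held 39 reads with shRNA1, 24 with shRNA2 and 7 in the control, or 30.9, 17.1 and 12.8 normalized counts (knockdown 24.0 ± 9.74, SD, n = 2). Both hairpins lay above the control. The ratio of shRNA1 to shRNA2 was 1.59 on the fold scale (0.933 to 2.77), which includes no difference, and 1.80 on the normalized scale (1.06 to 3.13). On the fold scale the knockdown was 3.71-fold higher (1.70 to 9.59), shRNA1 4.54-fold (2.01 to 12.0) and shRNA2 2.85-fold (1.19 to 7.84). On the normalized scale it was 1.85-fold higher, and that interval, 0.846 to 4.78, includes no change. The same holds for shRNA2 alone on that scale (1.34-fold, 0.559 to 3.68), while shRNA1 alone was 2.41-fold higher (1.07 to 6.39).

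**Figure D2:**
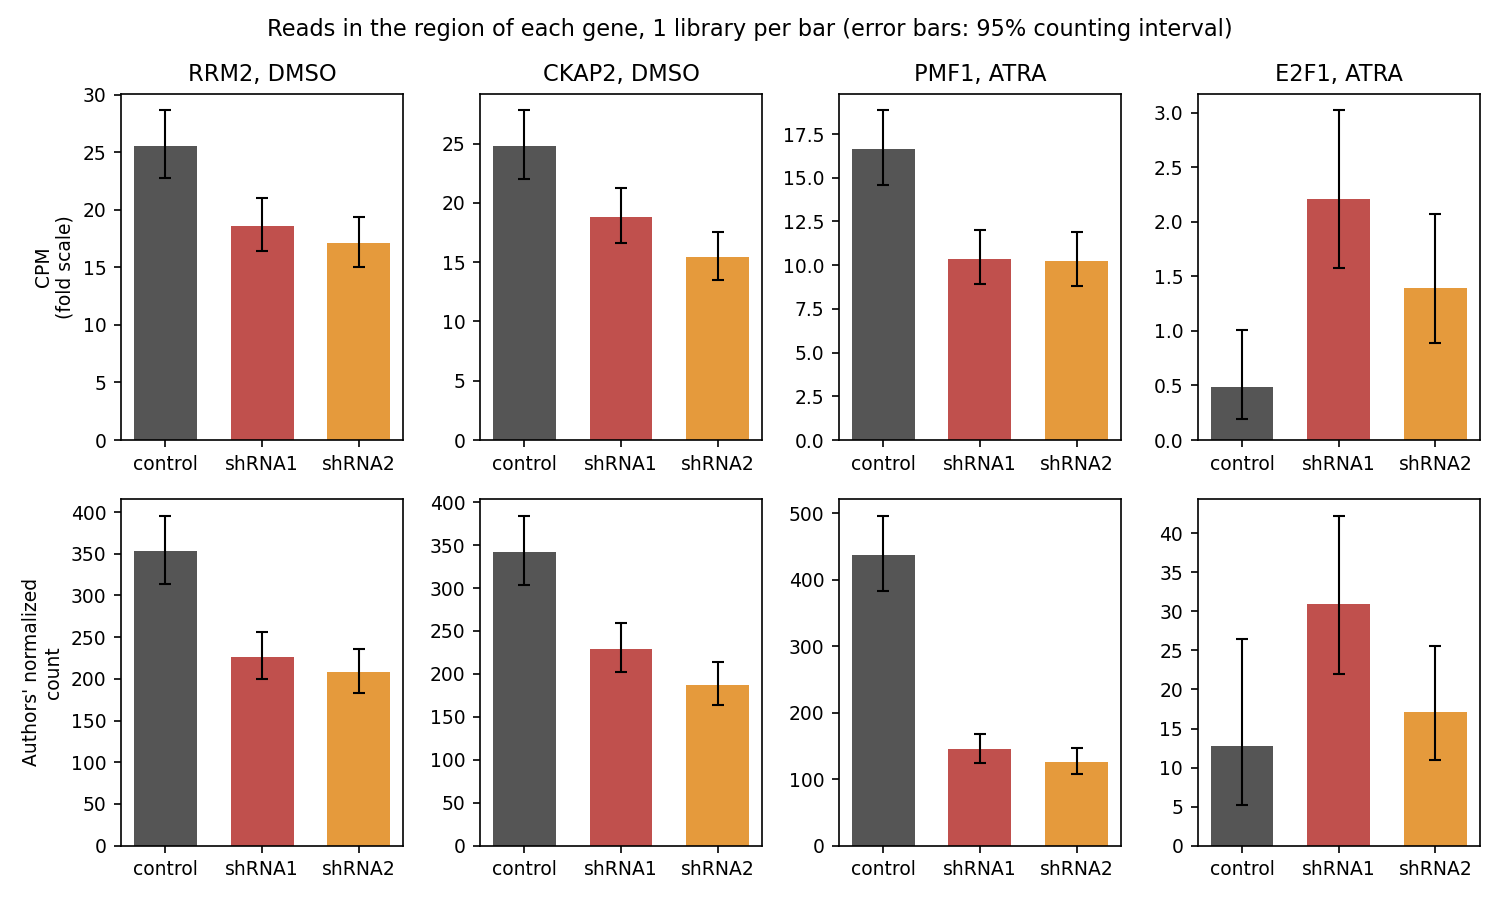
Reads scaled to CPM (counts per 1000000 reads of library size) on the fold scale (top) and the authors' normalized counts (bottom) in the region of each gene, 1 bar per library, with 95% exact counting intervals as error bars. The control bar is the tallest at RRM2, CKAP2 and PMF1 and the lowest at E2F1. At E2F1 the control interval overlaps that of shRNA2 on both scales and that of shRNA1 on the normalized scale.

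**Figure D3:**
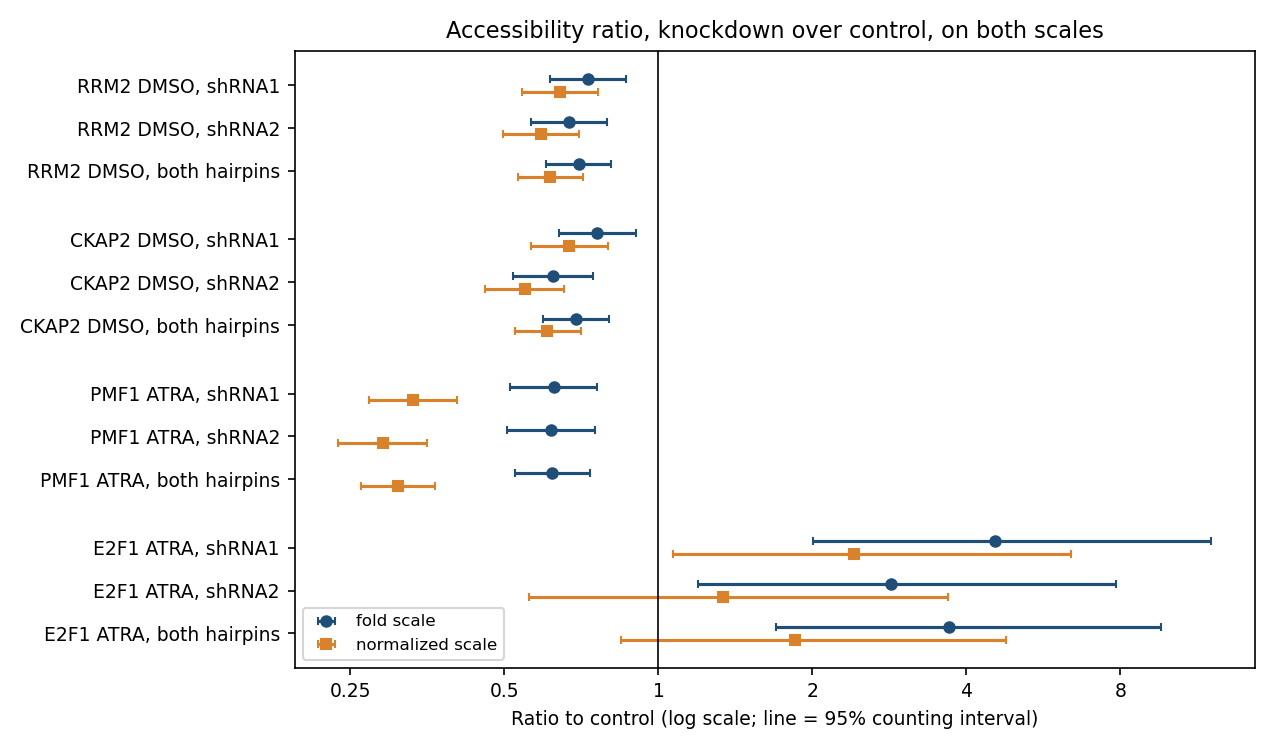
Ratio of knockdown to control reads on a log axis for shRNA1, shRNA2 and both hairpins together, on the fold scale (circles) and the normalized scale (squares), with 95% exact counting intervals. The intervals for RRM2, CKAP2 and PMF1 lie below 1 on both scales, and those for E2F1 reach below 1 on the normalized scale for shRNA2 and for both hairpins together.

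Among these 4 regions 3 were lower in the knockdown, 2 of 2 in DMSO and 1 of 2 in ATRA. Over all listed regions 34.1% were lower in DMSO on both scales. In ATRA 20.9% were lower and 79.1% higher on the fold scale, and 31.0% were lower and 69.0% higher by the normalized counts. Nothing is read from the members' own counts, since the contrast selected them. The changes at RRM2 and CKAP2 were at the small end of what the DMSO table holds. In the authors' deposited table the log2 fold change was -0.52 at RRM2 and -0.54 at CKAP2, while the median of the 110 lower regions in DMSO was -1.58. RRM2 had the fourth and CKAP2 the sixth smallest fall among them. At PMF1 it was -0.69, the smallest fall of the 56 lower regions in ATRA, whose median was -2.18. On the normalized scale, where 83 ATRA regions were lower, PMF1 ranked 28 from the smallest fall. At E2F1 it was 1.87, rank 68 from the smallest of the 212 higher regions, whose median was 3.60.

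All 4 regions had more reads than the median listed region. RRM2 (802 reads over the 3 libraries) and CKAP2 (771) ranked 4 and 5 of 323 by reads, where the median region had 37. PMF1 (599 reads) ranked 6 of 268 and E2F1 (70 reads) ranked 87, against a median of 33. RRM2 and E2F1 also stood close to the limit on p at which the tables end. In the authors' deposited table the unadjusted p was 0.00474 at RRM2, 0.00480 at E2F1, 0.00380 at CKAP2 and 0.00274 at PMF1. The E2F1 region had the seventh largest p of its table and the RRM2 region the 13th largest.

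The direction of the best covered regions depended on the scale in ATRA and not in DMSO. Of the 20 regions with the highest mean abundance in DMSO, a class set after the values were seen, 19 were lower in the knockdown on both scales, RRM2 and CKAP2 among them. The direction at these genes was thus that of nearly all well covered listed regions in DMSO. Of the 20 most abundant in ATRA, PMF1 was the single lower region on the fold scale, and 19 were higher. PMF1 was also the narrowest of these, at 222 bp against a median of 675 bp. On the normalized scale 19 of those 20 were lower. The next most abundant lower region in ATRA, nearest to MTRNR2L6, was also narrow, at 100 bp. It had 293 reads over the 3 libraries, against 599 at PMF1, and a mean abundance of 2.63 log2 CPM against 3.65. PMF1 held 270 reads per 100 bp, against 103 at RRM2, 83.2 at CKAP2 and 32.6 at E2F1.

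**Figure D4:**
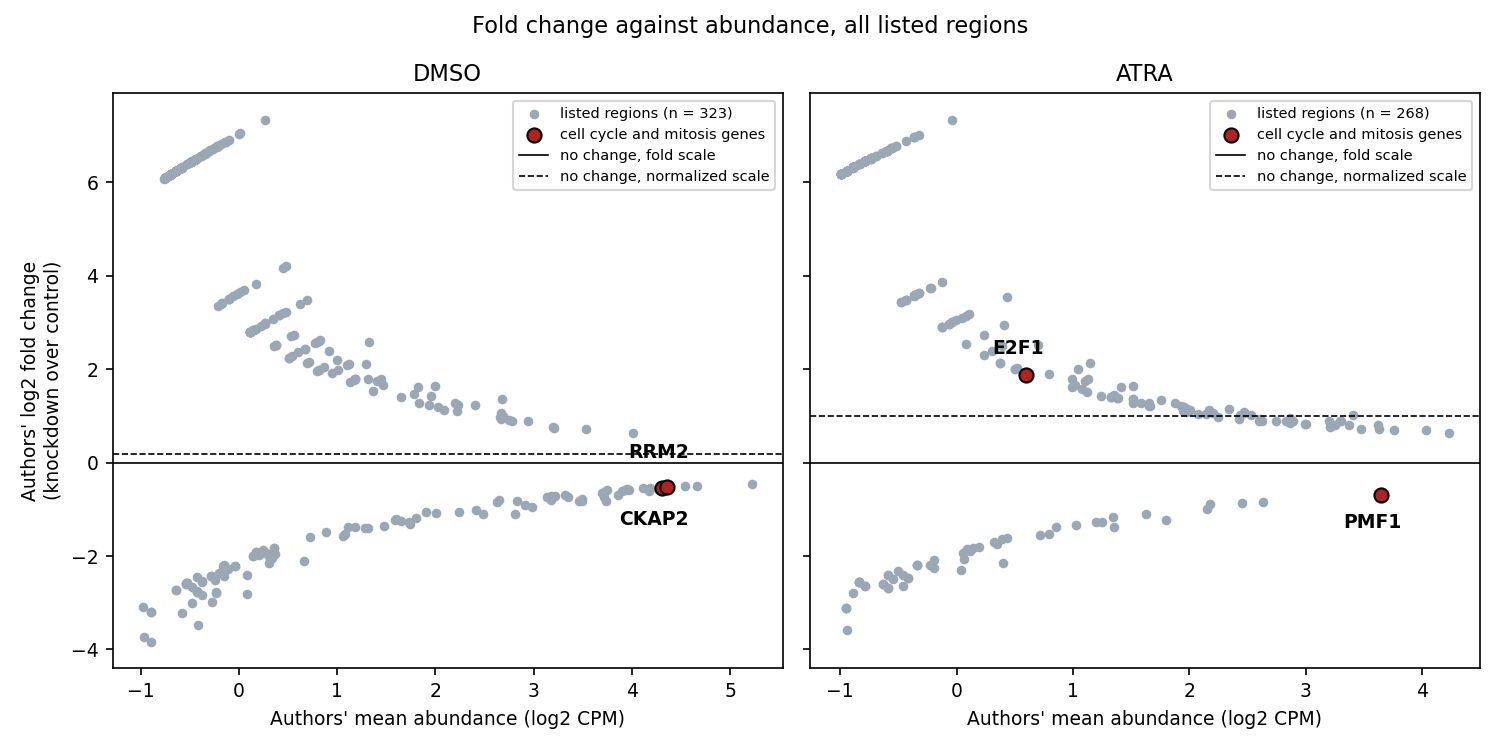
The deposited log2 fold change of knockdown over control (y axis) against mean abundance (log2 CPM, x axis) for all 323 listed regions in DMSO and 268 in ATRA, with the 4 genes in red. The solid line marks no change on the fold scale and the dashed line no change on the normalized scale, 0.18 higher in DMSO and 1.00 higher in ATRA. RRM2 and CKAP2 sit at the abundant end of the lower arm, PMF1 lies alone to the right of the other lower regions in ATRA, and E2F1 lies on the upper arm.

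The regions nearest to each member were found by Euclidean distance over the 3 libraries of a treatment, in log2(CPM + 0.5). Values were not centred per region, so read level weighs in this distance beside the difference between knockdown and control. A small distance is therefore not by itself a shared response. RRM2 was closest to a region of TMX4, an endoplasmic reticulum thioredoxin-related gene, at a distance of 0.10 (245, 241 and 283 reads with shRNA1, shRNA2 and control), then to CKAP2 (0.15) and to RAB1B, a GTPase gene of transport from the endoplasmic reticulum (0.21). CKAP2 had the same neighbours, TMX4 (0.11), RRM2 (0.15) and RAB1B (0.25). The median distance to all other DMSO regions was 7.18 from RRM2 and 7.09 from CKAP2. E2F1 was closest to regions of PHACTR1 (0.28), GPBP1L1 (0.31) and DCPS, the scavenger decapping enzyme gene (0.31), all 3 higher in the knockdown, with a median distance of 1.87 to all other ATRA regions. For PMF1 that median was 6.36. Its closest regions, at SEL1L (1.10), RNASET2 (1.11) and RNF170 (1.15), were all higher in the knockdown on the fold scale, the direction opposite to PMF1, and all lower on the normalized scale, by log2 ratios of -0.30, -0.29 and -0.28 against -1.69 at PMF1.

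Listed regions on the same chromosome within 1000000 bp of a member were few, and RRM2 had 0. A DMSO region of NEK5, a NIMA-related kinase gene, lay 326149 bp from CKAP2, with a log2 fold change of 2.71 in the authors' deposited table, opposite in direction to CKAP2. An ATRA region of ETV3L lay 873487 bp from PMF1 (-2.63).

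The share of division cycle genes that were listed is raised by the members, which were chosen from the listed regions. Over 5 lists holding 228 genes, the 4 members included, 4 genes (1.75%) had a listed region in DMSO and 4 (1.75%) in ATRA. Over all 20052 protein-coding genes of RefSeq the shares were 1.59% and 1.3%. Apart from the members, the listed genes were MAD1L1 and ANAPC10 in DMSO and PDS5B and FZR1 in ATRA. Without the members the shares of the lists are thus lower than 1.75%, and no result is read from the comparison with all genes. Nucleotide supply had 1 of 28 genes listed (RRM2), spindle and mitotic entry 1 of 55 (CKAP2), and G1/S control 1 of 35 (E2F1). The 47 DNA replication genes had 0 in either treatment. The kinetochore and checkpoint list held the remainder, 2 of 63 in DMSO (1 lower, 1 higher) and 3 of 63 in ATRA (1 lower, 2 higher).

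The 4 list genes with a listed region beside the members all came from the kinetochore and checkpoint list, so their shared theme follows from that list. The lists do not hold every gene of division: HJURP and CDK5RAP2, for example, had listed regions and are on none of them. MAD1L1 codes for the spindle checkpoint protein MAD1. Its region in DMSO held 40 and 27 reads (shRNA1, shRNA2) against 62 and was 2.29-fold lower, by the fold scale (1.60 to 3.29). ANAPC10 codes for a subunit of the anaphase-promoting complex. Its region in DMSO held 112 and 102 reads against 43 and was 2.01-fold higher (1.44 to 2.86), and 1.77-fold higher on the normalized scale. PDS5B codes for a cohesin regulator. Its region in ATRA held 49 and 34 reads against 11 and was 3.11-fold higher (1.65 to 6.46), but 1.55-fold on the normalized scale, with an interval of 0.822 to 3.22. FZR1 codes for CDH1, an activator of the anaphase-promoting complex. Its region in ATRA held 149 and 138 reads against 64 and was 1.85-fold higher (1.40 to 2.46) on the fold scale, while on the normalized scale the ratio was 0.920 (0.700 to 1.23), the other side of no change.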

How the data were processed

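ATAC-seq of 6 NB4 libraries was analysed from 1 deposited table per treatment. The submitters' processing notes name the build GRCh37.p13 and the tools edgeR, MACS2, Picard 2.5.0, STAR and bcl2fastq. Roles, settings, peak calling, the Tn5 offset and the removal of duplicate or mitochondrial reads: not given in the sources used here. Per the file headers, each table holds raw counts of reads per library, and the authors' log2 fold change, mean log2 CPM, F score and unadjusted p-value. The authors also deposited a normalized signal, which is the raw count times 1 factor per library. These factors equal DESeq2 size factors computed from the listed regions alone (largest difference 0.000947%), so that scale sets the typical listed region with reads in every library near no change. The description of the DMSO control names ATRA, and its title and column, which give DMSO, were followed.

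Library sizes were recovered by least squares from the deposited fold changes and abundances (prior counts 0.125 and 2), which they gave back within 0.00657 log2 units in DMSO and 0.00174 in ATRA. The plan assumed these sizes. Ratios are summed knockdown reads over control reads, scaled by library size, with Clopper-Pearson intervals (SciPy 1.17.1). edgeR 4.0.16 (quasi-likelihood, R 4.3.3, filterByExpr minimum 10, Benjamini-Hochberg over the listed regions, threshold 0.05) and DESeq2 1.42.0 were fitted on all regions of a table, with 1 residual degree of freedom, after a check on simulated data. Their calls describe the tables and support no member.

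The members and lists were chosen with earlier results of these data known. Named genes were the members, every list gene with a listed region, and for each member the 3 regions nearest by Euclidean distance. Genes were matched to RefSeq by symbol or synonym, and all 4 members had a promoter entry. The strand column equalled the gene's strand in 460 of 461 regions that could be compared. Alternatives were the normalized scale, DESeq2 size factors, a pseudocount of 0.5 CPM, no count filter, and each hairpin left out. Some neighbouring regions are not reported here.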

Additional observations from a re-analysis of the deposited data

How the results depend on the processing

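The direction at RRM2, CKAP2, PMF1 and E2F1 was the same in all 20 alternatives to their log2 ratios. That count supports no member, since the contrast selected the regions and an added pseudocount cannot reverse a direction. In 8 of the 20 a value moved by more than the spread between hairpins (1 SD). With 2 hairpins, leaving 1 out shifts a value by less than 1 SD by construction. On the normalized scale the log2 ratio went from -0.52 to -0.70 at RRM2, from -0.69 to -1.69 at PMF1 and from 1.89 to 0.89 at E2F1. DESeq2 size factors gave the same values, -0.70, -1.69 and 0.89, as they are the same scale. A pseudocount of 0.5 CPM gave -0.66 at PMF1 and 1.22 at E2F1. With 1 hairpin left out the log2 ratio ranged from -0.58 to -0.46 at RRM2, -0.68 to -0.40 at CKAP2, -0.70 to -0.68 at PMF1 and 1.51 to 2.18 at E2F1. With 7 control reads, E2F1 is the value that depth limits most. edgeR's quasi-likelihood test, adjusted over listed regions that were themselves selected by p, called 309 of 309 DMSO regions, 267 of 267 ATRA regions and, with the normalized scale, 148 of 257 ATRA regions. DESeq2 at the same library sizes called 0 in DMSO (104 at an unadjusted p under 0.05) and 0 in ATRA (130), and with its own size factors 0 in DMSO (80) and 13 in ATRA (96). The cause of these differences was not tested. With a hairpin left out, 1 library stands against 1 and no residual degree of freedom is left, so no calls were made. No paired analysis was possible because knockdown and control within a treatment share fewer than 2 replicate numbers.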
